A study of Homo sapiens with 8 samples.

Results

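ERK signalling switches on its own brakes and a set of output genes, and 10 of them are described here in HaCaT keratinocytes stimulated with the cytokine mixture M5. They are the MAP kinase phosphatases DUSP4, DUSP5 and DUSP6, the Sprouty genes SPRY1, SPRY2 and SPRY4, the Spred genes SPRED1 and SPRED2, and the output genes PHLDA1 and ETV5. The genes were chosen by name, by a rule that uses no measured value but with earlier results of these data known, from 17131 genes in the deposited table. All 10 had enough reads to enter the comparison, which covered 12434 genes.

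The study asked what an inhibitor of the kinase TOPK, encoded by PBK, changes in stimulated keratinocytes. HaCaT is an established, spontaneously immortalised line of keratinocytes, the cells that make up most of the human epidermis, so the results come from a single line. RNA of 8 samples was sequenced, 4 in libraries titled M5_O5 and 4 in libraries titled M5, and no sample without M5 was analysed here. Nothing states whether the 4 samples of a group were separate cultures, and p-values then measure only the spread between these samples, which may be technical.

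All 8 samples received M5, in which 5 cytokines (oncostatin M, TNF-α, IL-1α, IL-17A and IL-22) are combined, at 10 ng/mL for 24 h. The methods give the inhibitor as OTS514 at 10 nM, added 12 h before the cytokines. The labels disagree on which samples received it. Read literally, M5_O5 stands for M5 together with OTS514, but the treatment entry gives those samples as untreated and assigns the inhibitor to the samples titled M5. Titles are used here as group names, and every direction below is M5_O5 relative to M5, without saying which group was treated.

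In the ERK pathway, a growth factor or cytokine receptor activates RAS, which passes the signal through RAF and MEK kinases to the kinases ERK1 and ERK2. Active ERK enters the nucleus and drives transcription through ETS family factors and AP-1, and among the induced genes are those whose products shut the pathway down again. Dual-specificity phosphatases remove the activating phosphates from ERK itself, whereas Sprouty and Spred proteins act higher up, at the receptor, RAS and RAF. In the epidermis, EGFR and ERK signalling are known for their part in keratinocyte proliferation and migration. Because these genes are transcribed in response to ERK, their mRNA is widely used as a readout of pathway output.

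The 10 genes did not move together. By edgeR's quasi-likelihood test, with p-values adjusted by the Benjamini-Hochberg method over all 12434 genes, ETV5 and DUSP4 were higher in M5_O5, SPRY4, DUSP5 and DUSP6 were lower, and the other 5 genes did not pass an adjusted p of 0.05. Thus 5 of 10 were called, where 37.1% of all tested genes were called. The 2 called higher stand beside a background of 19.5%, and the 3 called lower beside 17.6%. None of the 10 also differed by 2-fold or more, as 3.2% of all genes did. In the same 5 genes the ranges of the groups did not overlap, as was so for 33.6% of tested genes. An exact two-sided permutation test gave each of them p = 0.0286, the smallest that 4 against 4 libraries allow. After Benjamini-Hochberg adjustment over the 10 genes this became 0.0571, so by that test none passed 0.05. The median log2 fold change of the 10 was 0.04, beside 0.01 for all tested genes, and the median size of the change regardless of direction was 0.18, beside 0.19. The changes of the 10 genes were thus close in median size to those of all genes.

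**Figure D1:**
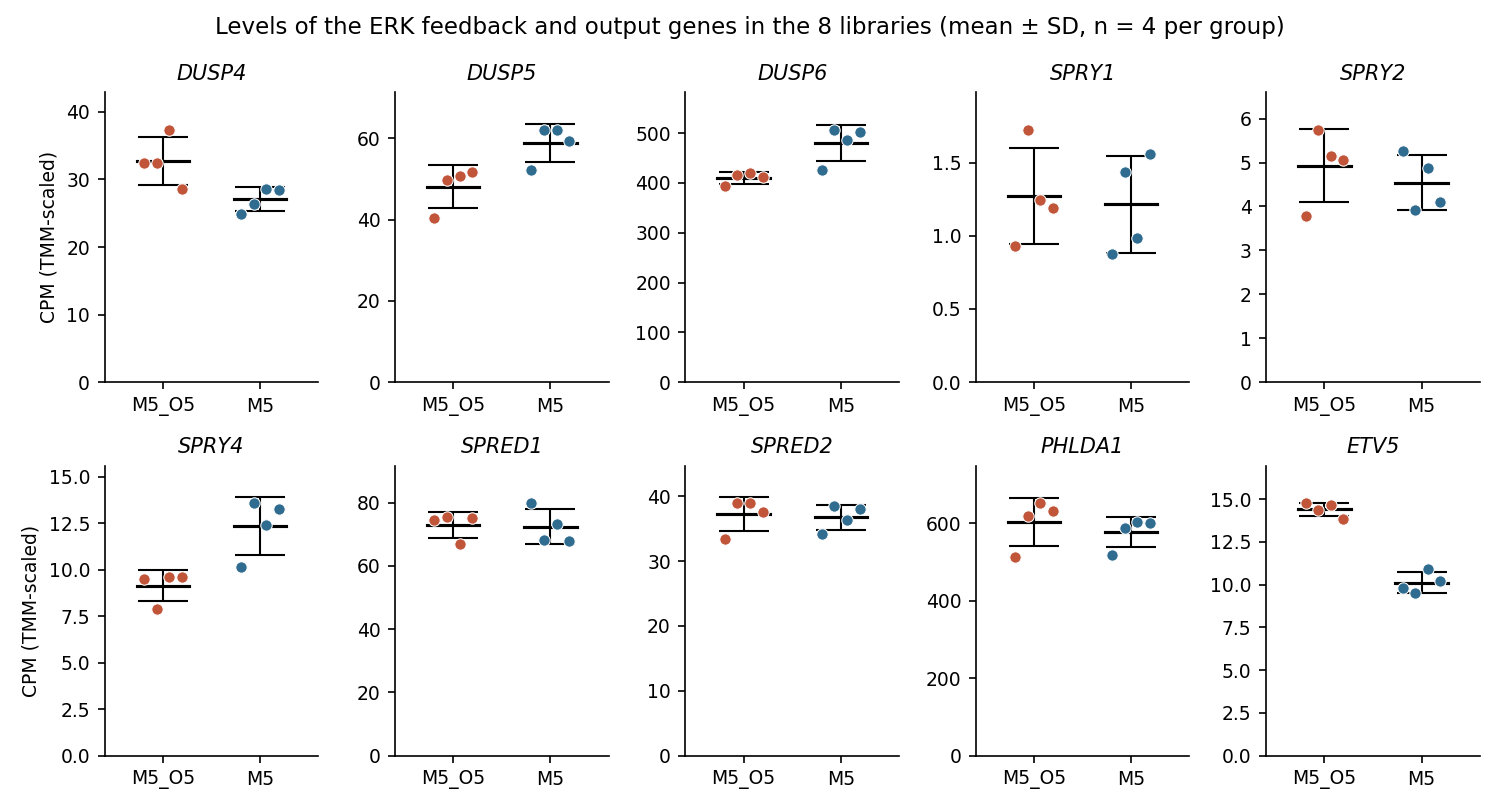
Levels of the 10 genes in each library, as reads per 1000000 after TMM scaling (CPM), with a separate vertical axis from 0 for each gene; points are libraries, the thick bar is the mean and the whiskers are the SD (n = 4 per group). The groups are apart for ETV5, SPRY4, DUSP5 and DUSP6, nearly touch for DUSP4, where the lowest M5_O5 library is at 28.64 and the highest M5 library at 28.63, and overlap for the other 5 genes.

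Among the phosphatases, DUSP6 is the cytoplasmic enzyme with a preference for ERK, and DUSP5 and DUSP4 are nuclear enzymes, of which DUSP5 is restricted to ERK and DUSP4 also acts on other MAP kinases. DUSP6 was read at 393, 416, 419 and 412 CPM (reads per 1000000 after TMM scaling, not divided by gene length) in M5_O5 replicates 1 to 4, and at 427, 507, 487 and 502 CPM in the M5 replicates. Every M5_O5 library lay below every M5 library, and M5 replicate 1 lay nearest to the other group. The mean was 410 ± 11.6 (SD, n = 4) against 481 ± 36.8, a log2 fold change of -0.23 (SE 0.06, 95% interval -0.36 to -0.10) with an edgeR adjusted p of 0.00903.

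DUSP5 moved in the same direction. Its levels were 40.4, 49.7, 50.7 and 51.6 CPM in M5_O5 and 52.2, 61.9, 62.1 and 59.4 CPM in M5. The groups did not overlap, although M5_O5 replicate 4 and M5 replicate 1 were close to each other. The log2 fold change was -0.29 (SE 0.08, 95% interval -0.47 to -0.12, edgeR adjusted p 0.0119). Relative to DUSP6 in the same library, DUSP5 had 10.3 to 12.5 reads per 100 DUSP6 reads in M5_O5 and 11.8 to 12.7 in M5, and these ranges overlapped.

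DUSP4 differed in the opposite direction. It was read at 32.5, 32.4, 37.3 and 28.6 CPM in M5_O5, and at 24.96, 26.3, 28.6 and 28.5 CPM in M5. The separation was narrow, since M5_O5 replicate 4 stood at the level of M5 replicates 3 and 4. The log2 fold change was 0.27 (SE 0.08, 95% interval 0.09 to 0.45, edgeR adjusted p 0.0199). Without M5_O5 replicate 3, the highest library, the value was 0.20 with an adjusted p of 0.0692, and without M5 replicate 2 it was 0.26 with an adjusted p of 0.0508. DUSP4 had 6.96 to 8.91 reads per 100 DUSP6 reads in M5_O5 and 5.20 to 5.88 in M5, a ratio of means of 1.41 that does not depend on the scaling between libraries. This ratio was chosen after the values were seen and is given as a description.

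DUSP6 was estimated from a pair of transcripts, whose coding sequences differ by an exon that is spliced in or skipped. The longer, NM_001946, has a coding sequence of 1143 bases and 381 codons, and the shorter, NM_022652, one of 705 bases and 235 codons. The skipped exon is exon 2 of NM_001946, at chr12:89350588-89351025 on the minus strand of GRCh38 (GENCODE annotation), and its 438 bases are 146 whole codons, so the reading frame continues across the new junction. In this annotation the first and last exons of the pair also differ in length, with 1632 and 2330 bases in the longer and 766 and 1193 bases in the shorter. The authors estimated counts on RefSeq transcripts, whose exon ends were not examined here, so these lengths need not apply to the counts. The joins are shown because they mark what each transcript codes for. Each line reads 5′ to 3′, with 20 bases of the upstream exon in lower case and 20 bases of the downstream exon in capitals.
NM_001946 exon 1 to exon 2: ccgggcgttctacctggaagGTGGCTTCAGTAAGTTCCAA
NM_001946 exon 2 to exon 3: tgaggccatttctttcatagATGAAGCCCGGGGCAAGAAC
NM_022652 exon 1 to exon 3: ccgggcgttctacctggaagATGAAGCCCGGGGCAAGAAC

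The shorter transcript held 4.77%, 4.06%, 3.86% and 3.69% of DUSP6 reads in the M5_O5 libraries, and 5.90%, 4.73%, 5.88% and 6.62% in the M5 libraries. The ranges overlapped only where M5_O5 replicate 1 (4.77%) passed M5 replicate 2 (4.73%). An exact two-sided permutation test over the 8 libraries gave p = 0.0571, and 0.129 after Benjamini-Hochberg adjustment over the 3 transcripts examined in this way, so the shift in share did not pass the threshold. The smallest p that 4 against 4 libraries allow is 0.0286. In CPM, the shorter transcript was at 16.8 ± 1.51 in M5_O5 and 27.8 ± 4.14 in M5, without overlap, and the longer was at 393 ± 12.8 and 453 ± 35.5 (SD, n = 4 for each), with overlap. These levels are estimates, since reads shared by both transcripts were divided by the authors' counting program.

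**Figure D2:**
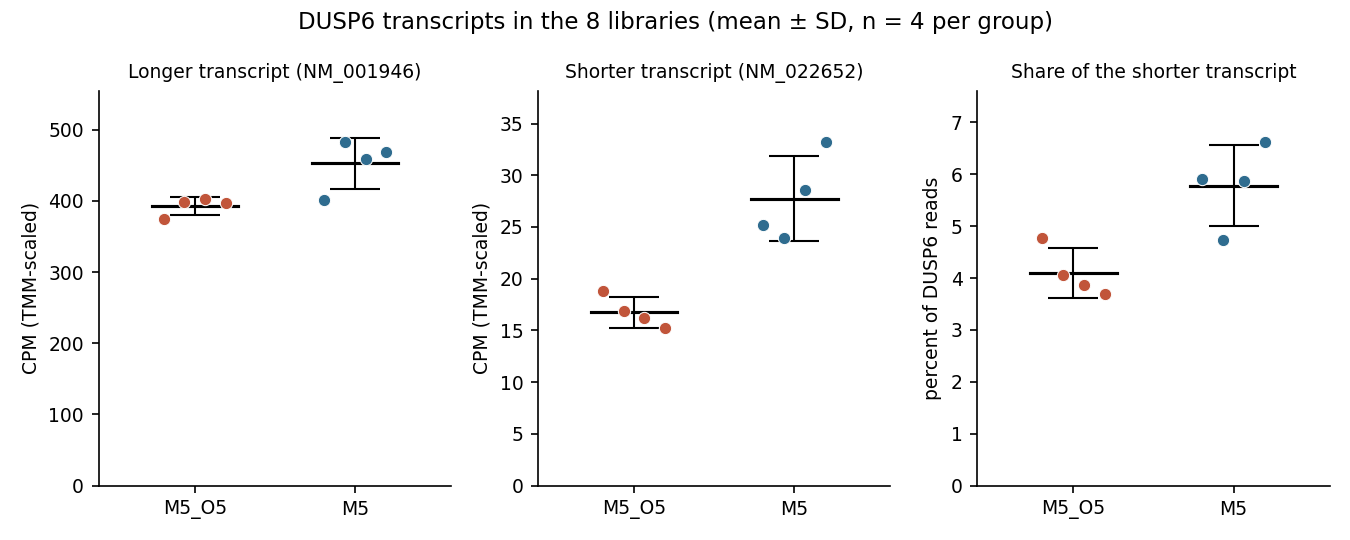
Estimated levels of the longer and the shorter DUSP6 transcript in CPM and the share of DUSP6 reads, in percent, given to the shorter one; points are libraries, bars the mean and whiskers the SD (n = 4 per group), with all axes from 0. The shorter transcript is at 15.2 to 18.8 CPM in M5_O5 and at 24.0 to 33.2 CPM in M5, and the shares overlap at 4.77% and 4.73%.

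The other transcripts examined gave no difference past the threshold. The less abundant DUSP4 transcript NM_057158 held 7.32% ± 1.59 of DUSP4 reads in M5_O5 and 4.74% ± 1.71 in M5 (n = 4 each, exact permutation p = 0.0857, adjusted 0.129). The SPRED1 model XM_005254202 held 44.9% ± 4.06 and 46.8% ± 3.96 (n = 4 each, exact permutation p = 0.486).

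Of the Sprouty genes, which encode inhibitors induced by growth factors that dampen signalling from receptor tyrosine kinases to RAS and RAF, SPRY4 was lower in M5_O5. Its levels were 9.53, 7.87, 9.60 and 9.63 CPM in M5_O5, and 10.2, 13.6, 12.4 and 13.3 CPM in M5. The groups did not overlap, and M5 replicate 1 was again the M5 library closest to the other group. The log2 fold change of -0.44 (SE 0.11, 95% interval -0.67 to -0.20, edgeR adjusted p 0.00704) was the largest fall among the 10 genes. The fall was also seen in the leading SPRY4 transcript NM_001127496, at 6.61 ± 0.241 CPM against 8.93 ± 1.39 (SD, n = 4), without overlap.

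SPRY2 and SPRY1 were low. SPRY2 lay between 3.78 and 5.74 CPM in M5_O5 and between 3.92 and 5.26 CPM in M5, and its log2 fold change of 0.12 (95% interval -0.20 to 0.45) had an edgeR adjusted p of 0.550. Only 12 to 30 reads per library fell on SPRY1, whose log2 fold change of 0.06 carried an interval from -0.50 to 0.61 (edgeR adjusted p 0.886). The SPRY1 interval is wide enough to hold a fall of the size measured for SPRY4.

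A promoter window runs from 250 bases before to 50 after the annotated start. Windows from the RefSeq table (GRCh38.p14) were searched for 7 of the 10 genes, 11 windows in all. DUSP4 was left out of the search, and DUSP5 and ETV5 had no window in that table. The 250 bases before the start are shown for SPRY4, which was lower in M5_O5, and for the most upstream start of SPRY2, which was not called, because they are close relatives that differed in the comparison. SPRY4 lies on the minus strand at chr5:142324248-142324497 and SPRY2 on the minus strand at chr13:80341127-80341376. Both read 5′ to 3′ along the gene, and capitals mark GGAA or its reverse complement TTCC, the core that ETS factors bind.
SPRY4: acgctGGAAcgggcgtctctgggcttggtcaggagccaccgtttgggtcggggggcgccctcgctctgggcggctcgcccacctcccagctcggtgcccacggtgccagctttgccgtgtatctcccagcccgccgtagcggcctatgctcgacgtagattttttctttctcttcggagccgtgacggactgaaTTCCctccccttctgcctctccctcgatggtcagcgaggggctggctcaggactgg
SPRY2: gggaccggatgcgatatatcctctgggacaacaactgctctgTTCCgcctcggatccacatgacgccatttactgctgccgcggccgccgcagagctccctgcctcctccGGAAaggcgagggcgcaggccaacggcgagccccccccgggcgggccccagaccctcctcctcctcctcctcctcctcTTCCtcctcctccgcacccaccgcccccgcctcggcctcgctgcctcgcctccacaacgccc

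GGAA on either strand was in 95.5% of all 35116 windows, with a median of 3 matches, so its presence distinguishes nothing. Counted over the whole window, with the 50 bases after the start that are not shown, DUSP6 held 6 matches, SPRY4 held 4, of which 2 are in the stretch shown, and the upstream window of SPRY2 held 3. The longer ETS sequence CCGGAA, which contains the GGAA core and was also searched on both strands, was in 17.2% of all windows and in a window of PHLDA1, SPRY1 and SPRY2, none of which was called. The AP-1 sequence TGANTCA was in 7.71% of all windows and in 1 window of SPRED2. The octamers TGAATGAA and TGAATGGA, which the repressor CIC recognises, and the cAMP response element TGACGTCA were in 1.66%, 1.03% and 1.85% of all windows and in none of the 11. A match is a run of letters and not evidence of binding.

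The Spred genes encode relatives of Sprouty that bind neurofibromin and hold back RAS. SPRED1 was at 74.6, 75.5, 67.0 and 74.99 CPM in M5_O5 and 79.8, 68.3, 73.3 and 67.9 CPM in M5. SPRED2 was at 33.4, 38.9, 38.9 and 37.6 CPM in M5_O5 and 34.2, 38.5, 36.3 and 38.0 CPM in M5. For both genes the ranges of the groups overlapped. The log2 fold changes were 0.01 for SPRED1 (95% interval -0.13 to 0.15, edgeR adjusted p 0.883) and 0.02 for SPRED2 (95% interval -0.13 to 0.16, edgeR adjusted p 0.877). Unlike for SPRY1, these intervals are narrow and exclude a change as large as that of SPRY4 or ETV5.

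The output genes differed from each other. ETV5, an ETS transcription factor of the PEA3 group, gave the clearest separation of the 10. It was at 14.8, 14.4, 14.6 and 13.9 CPM in M5_O5, and at 9.78, 9.54, 10.9 and 10.2 CPM in M5. All M5_O5 libraries lay well above all M5 libraries, and the distance between the groups exceeded the spread within either. The log2 fold change was 0.51 (SE 0.08, 95% interval 0.33 to 0.69, edgeR adjusted p 0.000362), or 42.3% higher.

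PHLDA1, an early response gene with a pleckstrin homology-like domain, was at 512, 619, 651 and 632 CPM in M5_O5 and at 518, 587, 603 and 600 CPM in M5. Replicate 1 was the lowest library in each group, and the groups overlapped. The log2 fold change was 0.06 (95% interval -0.10 to 0.23, edgeR adjusted p 0.538).

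The ratio of a pair of genes within a library does not depend on the scaling and shows that they changed unequally, not in which direction either did. ETV5 had 3.36 to 3.75 reads per 100 DUSP6 reads in M5_O5 and 1.88 to 2.29 in M5, a ratio of means of 1.66 without overlap. Set against SPRY4, ETV5 had 144 to 182 reads per 100 SPRY4 reads in M5_O5 and 70.2 to 96.4 in M5, a ratio of means of 1.91. These pairs were chosen after their values were seen.

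**Figure D3:**
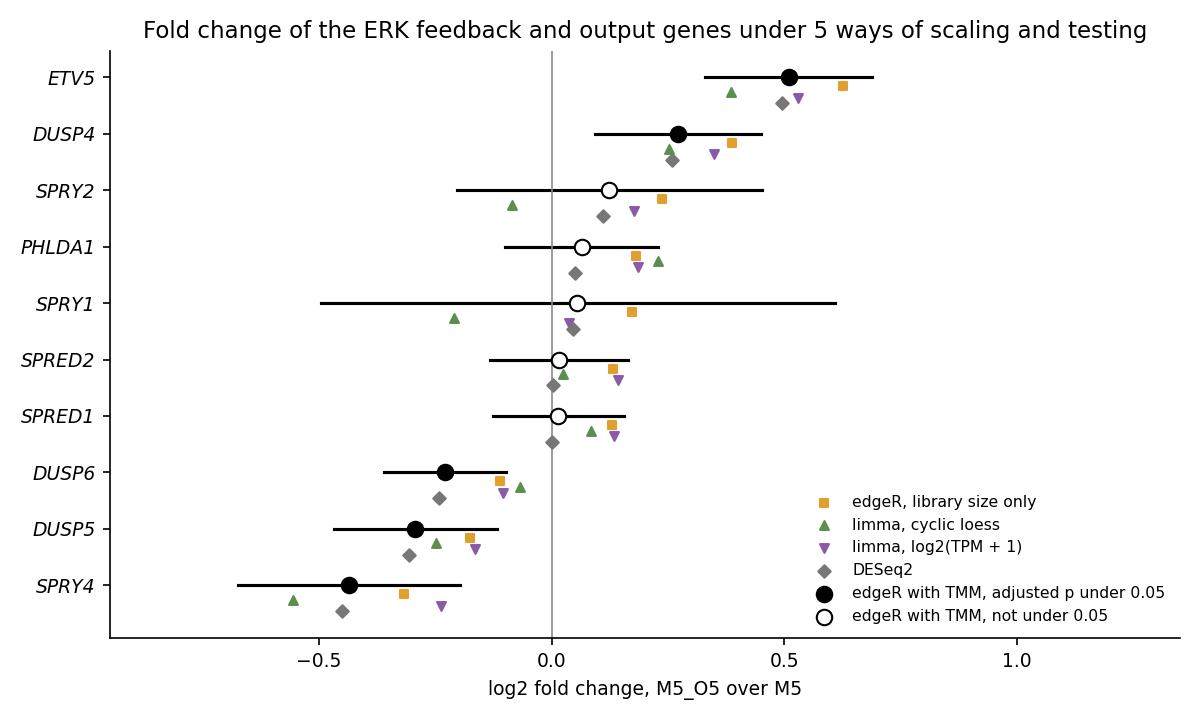
Log2 fold change of each gene, M5_O5 over M5, with its 95% interval from edgeR after TMM scaling (circles, filled where the adjusted p is under 0.05), and the value from 4 other ways of scaling or testing (small symbols). ETV5 and DUSP4 stay right of 0 and SPRY4, DUSP5 and DUSP6 stay left of it in all 5, with DUSP6 nearest to 0 under cyclic loess, at -0.07.

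The scaling between libraries changed calls for DUSP5, DUSP6 and PHLDA1. Among all fits SPRY4 missed the threshold only in those on TPM, which also change the measure and the test (limma adjusted p 0.0657 and 0.0764). Scaling by library size alone moved the median log2 fold change of all genes by 0.12, to 0.13, and relative to that median DUSP6 was at -0.24, as it was with TMM. Without allowance for the median, DUSP6 was at -0.11 (edgeR adjusted p 0.0928). Cyclic loess, which scales strongly expressed genes separately from weak ones, put DUSP6 at -0.07 (limma adjusted p 0.298) and PHLDA1 at 0.23 (limma adjusted p 0.0146), and it turned SPRY1 to -0.21 and SPRY2 to -0.085, neither of them called. The directions of the 5 called genes were the same in all 19 fits made, the reported one included, and ETV5 passed an adjusted p of 0.05 in 19 of them, DUSP4 and SPRY4 in 17, DUSP5 in 16 and DUSP6 in 15.

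Levels of different genes were compared in TPM, which divides by transcript length. DUSP6 was the highest of the 10 at 198 to 226 TPM, and PHLDA1 followed at 148 to 188 TPM, below DUSP6 in all 8 libraries. The ratio of DUSP6 to PHLDA1 was 1.16 in M5_O5 and 1.42 in M5. DUSP5 (31.9 to 42.2 TPM) came next, then SPRED1 (13.2 to 18.03) and SPRED2 (13.01 to 15.2), which were not told apart, as SPRED1 was the higher in 6 of 8 libraries. DUSP4 lay at 7.06 to 11.3 TPM and ETV5 at 3.57 to 6.72. ETV5 exceeded SPRY2 (2.77 to 4.53 TPM) in 7 of 8 libraries, and SPRY2 exceeded SPRY4 (2.64 to 4.14 TPM) in 4 of 8, so neither pair was separated. SPRY1 was lowest at 0.58 to 1.11 TPM, and the highest gene exceeded the lowest 280-fold.

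Other genes of the pathway were taken from lists written from general knowledge. With TMM scaling more of them were called lower in M5_O5 than higher. In counts of calls this excess was smaller or absent with library size alone and on the TPM scales. In those fits far more of all genes were called higher than lower. With TMM, 17.6% of all tested genes were called lower and 19.5% higher, and the counts below stand beside these shares. Of 20 genes of the cascade from receptor to ERK, all tested, 6 were lower, 1 was higher and 13 were not called, with a median log2 fold change of -0.11. The 7 called of 20 are a share near the 37.1% of all genes. EGFR, the receptor for EGF, was at -0.27 (edgeR adjusted p 0.00149), SOS2, an exchange factor that loads RAS, at -0.36 (0.000291) and the MEK gene MAP2K2 at -0.24 (0.00388). The scaffold gene KSR1 was the 1 called higher, at 0.34 (0.0431), and that call was lost on leaving out any of 6 single libraries. EGFR was at -0.08 (limma adjusted p 0.284) under cyclic loess and at -0.13 (0.124) on log2(TPM + 1). MAP2K2 lost its call under cyclic loess (-0.11, 0.130), with library size alone (-0.12, 0.096) and on log2(TPM + 1) (-0.11, 0.206), and SOS2 lost its call on log2(TPM + 1) (-0.22, 0.0714).

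Of the MAP kinase phosphatases outside the 10, 6 of 7 were tested, and 4 were lower (all genes 17.6%), 1 was higher (19.5%) and 1 was not called (median -0.34). DUSP16, which acts mainly on JNK and p38, was at -0.67 (edgeR adjusted p 1.19e-05), DUSP8, of the same subfamily, at -0.41 (0.00841), and DUSP7, a close relative of DUSP6, at -0.40 (0.000675). The DUSP8 call was lost when only the first placement of each transcript was counted (-0.34, 0.0652) and on log2(TPM + 1) (-0.21, limma adjusted p 0.114). DUSP9, also of the DUSP6 subfamily, was at 0.88 (0.00599), from 3.04 ± 0.819 CPM against 1.66 ± 0.336 (SD, n = 4). Over the whole family of 10 such phosphatases, 9 were tested, 2 were higher (DUSP4 and DUSP9), 6 were lower and 1 was not called. DUSP2 was under 1 CPM in every library and was not tested.

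Of 15 tested genes for other brakes, 7 were lower (all genes 17.6%), 2 were higher (19.5%) and 6 were not called (median -0.19). RASA2, which inactivates RAS, was at -0.54 (edgeR adjusted p 8.37e-05), TRIB1, a pseudokinase, at -0.38 (0.000174) and ERRFI1, an inhibitor of EGFR, at -0.32 (0.00306). PEBP1, which blocks RAF, was at 0.63 (2.54e-05), and PEA15, which keeps ERK in the cytoplasm, at 0.42 (5.19e-05).

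Of 18 tested genes for other output, 7 were lower (all genes 17.6%), 3 were higher (19.5%) and 8 were not called (median -0.27). LIF, a cytokine, was at 1.41 (edgeR adjusted p 7.79e-08), the growth regulator MYC at 0.47 (0.000156) and ETV4, a PEA3 group relative of ETV5, at 0.34 (0.00498). ETV4 was at 21.9 ± 2.12 CPM in M5_O5 and 17.4 ± 0.478 in M5 (SD, n = 4), without overlap, while the third PEA3 gene, ETV1, was under 1 CPM in every library and was not tested. The AP-1 gene FOSL1 was at -0.39 (0.0034), the receptor EPHA2 at -0.41 (0.000369), the early gene IER2 at -0.42 (0.000369) and the potassium channel KCNN4 at -0.52 (0.00266). CCND1, which drives entry into the cell cycle, was at -0.22 (0.0354), a call lost on leaving out any of 5 single libraries, and also with library size alone (-0.10, 0.357), under cyclic loess (-0.10, limma adjusted p 0.388) and on log2(TPM + 1) (-0.10, 0.537). EGR1 was at -0.27 (0.0908) and EPHA4 at -0.57 (0.122), neither called. EGR1 was called at -0.36 (0.0112) without M5 replicate 1 and EPHA4 at -0.71 (limma adjusted p 0.0429) under cyclic loess. With single libraries left out, EGR1 ranged from -0.36 to -0.16 and EPHA4 from -0.74 to -0.22. M5 replicate 1 was at 6.06 CPM for EPHA4, and the other M5 libraries were at 2.24 to 3.72 CPM.

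Of 11 transcription factors linked to ERK, 7 were lower (all genes 17.6%), 0 were higher (19.5%) and 4 were not called (median -0.22). ETS1 was at -0.70 (edgeR adjusted p 9.57e-07), ELK4 at -0.35 (0.0046) and ATXN1L, a partner of CIC, at -0.30 (0.000407). CIC, the repressor that ERK inactivates and that acts on the PEA3 genes, was at -0.22 (0.0258), with overlapping groups and a call that was lost on leaving out any of 5 single libraries. CIC was also not called with library size alone (-0.10, 0.248), under cyclic loess (-0.10, limma adjusted p 0.262) or on log2(TPM + 1) (-0.07, 0.492). ELK4 lost its call with library size alone (-0.24, 0.0637) and on log2(TPM + 1) (-0.20, 0.206), and ATXN1L on log2(TPM + 1) (-0.17, 0.0724).

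The balance of calls in all 5 lists depended on the scaling, and so did that over all genes. With library size alone, where 3858 of all genes were called higher and 1008 lower, the calls were 2 lower and 2 higher in the cascade, 3 and 2 among other phosphatases, 3 and 2 among other brakes, 5 and 4 among other output genes, and 3 and 2 among factors. On log2(TPM + 1), 3261 of all genes were called higher and 761 lower. The lists then gave 0 lower and 0 higher in the cascade, 2 and 1 among other phosphatases, and 3 and 2 among other brakes. Other output genes gave 5 and 4 on that scale, and factors 1 and 1. Under cyclic loess, 2002 of all genes were called higher and 1819 lower. The lists then gave 1 lower and 1 higher in the cascade, and 4 and 2 among other phosphatases and among other brakes. Other output genes gave 9 and 4 under cyclic loess, and factors 5 and 0. DESeq2 gave the counts of the TMM fit except in the cascade, at 7 and 0.

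**Figure D4:**
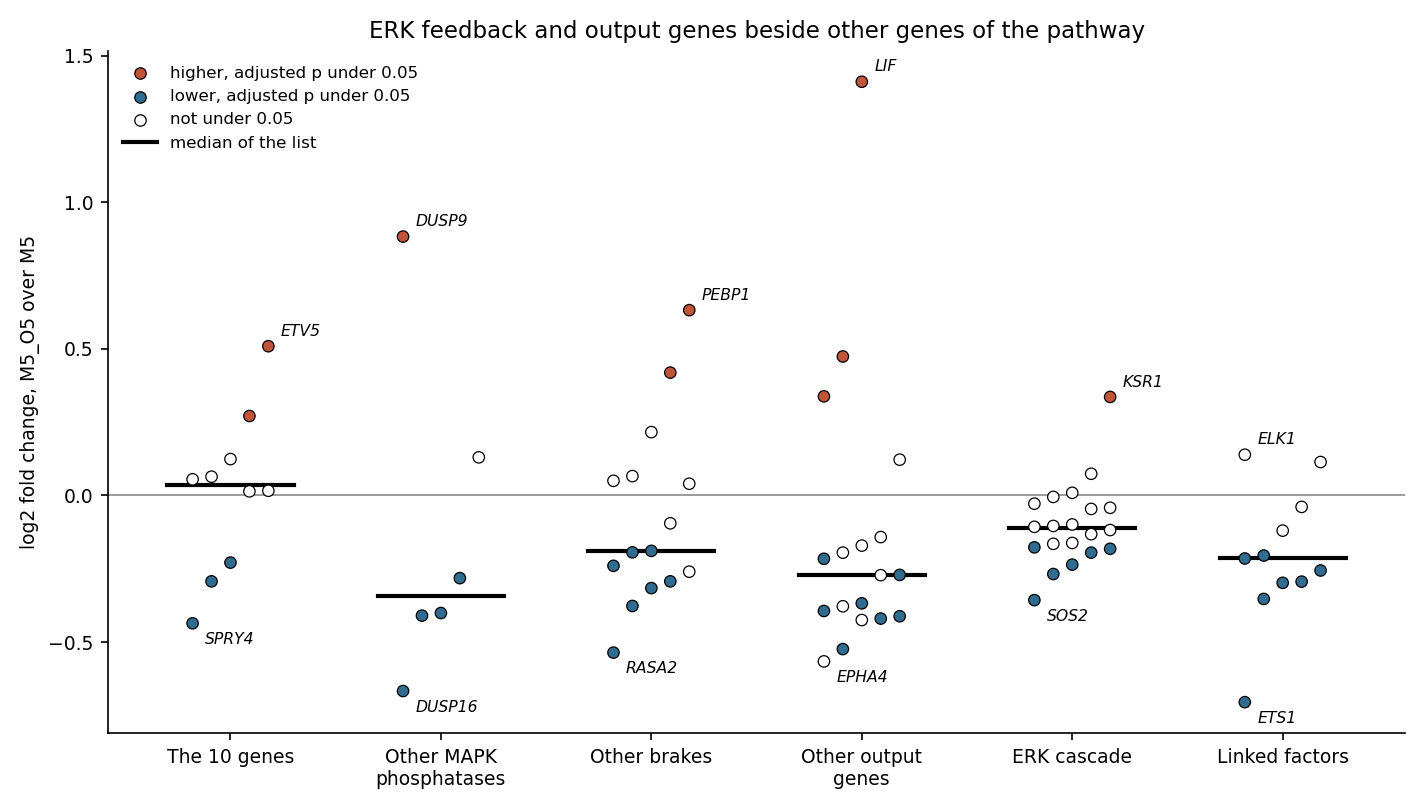
Log2 fold change of the 10 genes and of 5 lists of other ERK pathway genes, M5_O5 over M5; points are genes, filled where the edgeR adjusted p is under 0.05, and the bar is the median of each list, with the highest and lowest genes named. The 10 genes have a median of 0.04, and the other lists have medians from -0.34 to -0.11.

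Total reads overlapped between the groups, at 16113015 to 16922693 in M5_O5 and 13708055 to 16847599 in M5. The smallest total was that of M5 replicate 1, the M5 library nearest to M5_O5 for DUSP5, DUSP6 and SPRY4. Without it the counts among the 10 genes were again 2 higher and 3 lower. Genes of cell division moved with the titles. Of 20 genes of the G2 and M phases, 20 were higher in M5_O5 (all genes 19.5%, median of the 20 at 1.07), and their summed level was 354 to 374 CPM against 134 to 283. PBK, itself among the genes of dividing cells, was at 2.25 to 3.604 CPM against 0.588 to 2.63 (log2 fold change 1.32, edgeR adjusted p 0.00738), and its groups overlapped. That overlap came from M5 replicate 1 alone, at 2.63 CPM, as the other M5 libraries were at 0.588 to 0.987 CPM. M5 replicate 1 was also the highest M5 library for each of the 20 division genes. For MKI67 it was at 43.1 CPM, and the other M5 libraries were at 18.2 to 22.0 CPM. The part of these features in the results above was not tested, and in bulk RNA fewer cells of a kind and less RNA per cell cannot be told apart. Of 10 keratinocyte markers, all tested with TMM, 5 were lower in M5_O5 (all genes 17.6%) and 0 were higher (19.5%), with a median of -0.20. They summed to 16430 to 18580 CPM against 19590 to 22790. Most markers of other cells were low, with exceptions. Of the 5 immune markers with a value, 4 were under 1 CPM in every library, among them PTPRC, which marks leukocytes and was at 0 throughout. The 3 melanocyte markers with a value and 3 of 6 fibroblast markers were also under 1 CPM in every library. The exceptions were CD14, a receptor for lipopolysaccharide listed as an immune marker, at 30.8 to 36.4 CPM in M5_O5 and 35.2 to 39.0 CPM in M5, and the collagen gene COL1A1, listed as a fibroblast marker, at 30.4 to 34.8 and 40.5 to 54.5 CPM. COL1A1 was lower in M5_O5 (log2 fold change -0.58, edgeR adjusted p 0.000168) and CD14 was not called (-0.14, adjusted p 0.121). The immune list summed to 31.7 to 37.4 CPM against 36.2 to 40.4, and the fibroblast list to 33.0 to 36.6 against 43.1 to 58.3. The part of these markers in the results above was not tested.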

How the data were processed

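RNA of 8 HaCaT samples was analysed from a table with an estimated count, TPM and FPKM for each of 86639 RefSeq transcripts per library. The authors filtered and mapped the reads, and their processing notes name HISAT2 2.1.0, Bowtie2 2.2.5 and RSEM 1.2.8, while the paper's methods name StringTie for counting. The deposited estimated counts are not normalized, and 53.8% are fractional. In each library the deposited TPM sum to 1000000, and the deposited FPKM values, which divide counts by length and library size, were not used. The notes name the mouse build mm10 although the transcripts are human, and no coordinates were taken from the table. Whether counting used strand is not given in the sources used here, so antisense reads cannot be told apart.

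Counts were summed to 17131 genes by Entrez identifier and rounded. Symbols came from RefSeq (17072 matched). Genes passing filterByExpr were fitted with edgeR 4.0.16 (R 4.3.3) after TMM scaling, without covariates, and called at a Benjamini-Hochberg adjusted p under 0.05. CPM uses TMM-scaled totals. The standard error is the fold change over the root of F. The biological coefficient of variation was 7.42%. Counts cover counting error only and gave 12 to 10981 reads per gene and library among the 10 genes.

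Named genes were the 10, PBK, the 3 largest called changes in each direction per pathway list (mean at least 1 CPM), and CIC, ETV4, EPHA2, EPHA4, CCND1, FOSL1 and EGR1. DUSP2 and ETV1 were added later as relatives. The 10 genes and the lists were chosen with earlier results of these data known. Alternatives were DESeq2 1.42.0, limma 3.58.1 on cyclic loess CPM and on log2(TPM + 1) and log2(TPM + 0.1), other scalings and filters, first placements of transcripts only, a 2-fold threshold, a replicate block and each library left out. On simulated counts for 12434 genes, edgeR recovered 94 of 100 genes changed by a log2 of 1 and 73 of 100 changed by 0.5, with 7 false calls. In that simulation 12234 genes were unchanged and rises equalled falls in number, whereas 37.1% of genes were called in the data. It therefore does not probe the scaling, or changes under 0.5 such as those of DUSP4, DUSP5 and DUSP6. Replicate pairs differed by more than sampling noise (chi-square per gene 2.01 to 16.2), so no library was treated as a repeat run of another. Pairs with replicate 1 were at 10.2 to 16.2 in M5 and 7.15 to 11.2 in M5_O5. The other pairs were at 2.01 to 4.01 in M5 and 3.02 to 7.15 in M5_O5.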

Additional observations from a re-analysis of the deposited data

Results flagged for a closer look

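Of 26 groups of 4 libraries examined for a library far from the others, 3 held one, where chance gives about 1 in 20 groups, or 1.3. M5_O5 replicate 1 stood at 40.4 CPM for DUSP5, below the other M5_O5 libraries at 49.7 to 51.6 CPM. M5_O5 replicate 2 was at 7.87 CPM for SPRY4, below the others at 9.53 to 9.63 CPM. M5_O5 replicate 3 was at 67.0 CPM for SPRED1, below the others at 74.6 to 75.5 CPM. Each gene had a different library standing apart. Without the library concerned, the log2 fold change was -0.22 for DUSP5, -0.37 for SPRY4 and 0.05 for SPRED1, and the first 2 were still called.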

How the results depend on the processing

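Among the 10 genes, the counts of 2 higher and 3 lower became 3 and 1 with library size alone, 3 and 2 under cyclic loess, 3 and 0 on log2(TPM + 1) and on log2(TPM + 0.1), and both counts became 0 once a 2-fold change was required. DUSP5 (-0.18 with library size alone, -0.17 on both TPM scales), DUSP6 (-0.11, -0.10 on log2(TPM + 1), -0.10 on log2(TPM + 0.1), and -0.069 under cyclic loess) and SPRY4 (-0.24 on log2(TPM + 1) and -0.30 on log2(TPM + 0.1)) then missed the threshold, and PHLDA1 passed it at 0.18, 0.19 and 0.19 on those scales and at 0.23 under cyclic loess. With 2-fold required, the values of 0.27 for DUSP4, -0.29 for DUSP5, -0.23 for DUSP6, -0.44 for SPRY4 and 0.51 for ETV5 were not called. SPRY1 and SPRY2, never called, turned to -0.21 and -0.085 under cyclic loess. Over all genes, the calls were 3858 higher and 1008 lower with library size alone, 761 and 768 lower on the TPM scales, and 357 higher and 41 lower with 2-fold required.

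In the pathway lists, the higher calls became 2 for the cascade, the other phosphatases and the factors with library size alone. DESeq2 and both TPM scales gave 0 higher in the cascade, cyclic loess gave 2 higher among the other phosphatases, and both TPM scales gave 1 higher among the factors. Lower calls with library size alone were 2 in the cascade, 3 among other brakes and 3 among factors, cyclic loess gave 1 and 4 for the first 2 of these, and both TPM scales gave 0, 3 and 1, with 2 among the other phosphatases. With 2-fold required, 1 of the other output genes was called higher, and 0 genes of the lists were otherwise called. The cause of these shifts was not tested.

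With each library left out in turn, the 10 genes gave 1 to 2 higher and 3 lower, the cascade 0 to 1 higher and 3 to 7 lower, the other phosphatases 1 to 2 higher, and all genes 1902 to 2872 higher and 1676 to 2504 lower. The log2 fold change ranged from 0.20 to 0.33 for DUSP4, which lost its call without M5_O5 replicate 3 or M5 replicate 2, from -0.13 to 0.20 for SPRY1, from -0.016 to 0.063 for SPRED1 and from -0.017 to 0.064 for SPRED2, and no call among the other genes of the 10 changed. Libraries with the same replicate number were at most weakly alike (correlations of deviations from -0.004 to 0.209, highest for replicate 1). In 3 of 8 cases a library was closest to its own number. These values do not settle whether the replicates were paired. The replicate block gave 2703 higher and 2552 lower over all genes and changed no call among the 10, with ETV5 at 0.51 and DUSP6 at -0.23. It gave 10 lower among the other output genes in place of 7, and called EGR1 (-0.28, adjusted p 0.000371) and EPHA4 (-0.55, adjusted p 0.0211). The low counts of SPRY1 limit what can be seen for it.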
